A study of Mus musculus with 6 samples.

Results

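Cytosolic ribosomal protein genes were examined in keratinocytes sorted from mouse back skin with and without its nerves. Genes were taken by symbol from the deposited count matrix, as Rpl or Rps followed by a number and at most a short suffix, together with Rplp0, Rplp1, Rplp2 and Rpsa, which gave 85 of 24982 rows. Of these, 33 belong to the small (40S) and 52 to the large (60S) subunit, 8 of them by symbol paralogs or near copies of another member. Fau, which encodes a ribosomal protein as a fusion and whose symbol does not follow the pattern, was set beside the 85 where stated.

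Poly(A) RNA of 6 libraries was sequenced, 1 from the denervated left side and 1 from the normal right side of each of 3 mice, numbered 890, 892 and 899. In the denervated skin the nerves of the left back had been dissected away 4 weeks before sampling, and in the normal skin of the same mice they had been left in place. All mice carried Lgr6-EGFP-Ires-CreERT2 and R26loxP-stop-loxP-tdTom and received a single 20 µg dose of tamoxifen at postnatal day 42, so both sides share the genotype and the drug. The Lgr6 locus drives the Cre recombinase, and tdTomato therefore marks cells that expressed Lgr6 when tamoxifen was given, and their descendants. The cells were stained for CD49f (Itga6), an integrin of basal keratinocytes. No sham dissection of the right side is described, so the effects of nerve loss, of the operation and of the side of the body cannot be told apart. A lower level of an mRNA in a sorted population can come from fewer cells of a type or from less RNA in each cell, and these cannot be told apart here either.

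Library totals ran from 9610071 to 14021730 counts on the denervated and from 13801154 to 26167593 counts on the normal side. All 10 keratinocyte markers were detected and none passed the test, with summed levels of 51597 to 59901 CPM (counts scaled to a common library size, here with TMM factors) in denervated and 54796 to 56132 CPM in normal cells. Of the markers of other cells, Lum (fibroblast), Cdh5 and Cldn5 (endothelial), Mlana (melanocyte) and Krt20 (Merkel cell) were at 0 in all 6 libraries. Others of the same lists were detected at low levels, among them Col1a2 (0.363 to 1.57 CPM), Pecam1 (0.338 to 1.30 CPM), Vwf (0.765 to 1.31 CPM), Kit (0.934 to 2.43 CPM) and Krt8 (0.215 to 0.901 CPM). Thy1 (89.1 to 157 CPM), Cd74 (41.3 to 73.9 CPM), Cd207 (11.1 to 21.6 CPM) and Mitf (11.4 to 22.3 CPM) were higher. Of the 6 T cell markers 3 were tested, and none was called. All 3 had fold changes above 0 (median log2 0.23), and Cd3e was at 0.939 to 3.05 CPM. The 7 myeloid and Langerhans cell markers summed to 84.4, 94.2 and 106 CPM in denervated and 79.8, 60.7 and 103 CPM in normal cells of animals 890, 892 and 899, and of the 6 tested none was called and all 6 had fold changes above 0 (median log2 0.23). The part of such cells in the results was not tested. Of the Schwann cell list only Mbp was called (log2 fold change 0.38, adjusted p = 0.0145, edgeR), and Sox10, the defining gene of that list, was at 0 in 5 libraries. The call of Mbp was lost without the block (adjusted p = 0.146), in limma (0.139 and 0.136 at the 2 pseudocounts) and without animal 892 (0.0751). Along the axis of greatest variance between libraries (36.5% of the variance over genes), denervated 890 stood at one end at −37.6, and the other libraries between −9.73 and 24.5.

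Ribosomal proteins are made in near equal numbers to be assembled with ribosomal RNA, and their mRNAs are among the most abundant of dividing cells. Most of these mRNAs begin with a terminal oligopyrimidine (TOP) tract, an uninterrupted run of C and U at the very first bases, through which mTORC1 and the RNA-binding protein LARP1 set their translation. In skin, stem cells of the hair follicle are known to make less protein than their committed progeny. Ribosomal protein mRNAs are also well known for the large number of processed pseudogenes that copy them, which matters for how their reads are counted.

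The start regions of the genes around which the results turn are shown for the run of C and T (C and U in the RNA), here in capitals where it is at least 8 bases long. Each stretch holds 15 bases before and 15 from the annotated start of RefSeq (GRCm38.p6), 5′ to 3′ on the gene's strand. They are given for the gene with the smallest unadjusted p among those lower on the denervated side (Rps21), for that among those higher (Rpl35), for a stalk gene (Rplp2), for the target of S6 kinase (Rps6), for one of the most abundant mRNAs (Rpl28), and for the paralog Rpl22l1.
Rps21: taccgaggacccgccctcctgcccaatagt
Rpl35: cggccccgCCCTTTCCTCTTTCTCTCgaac
Rplp2: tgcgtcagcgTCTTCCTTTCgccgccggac
Rps6: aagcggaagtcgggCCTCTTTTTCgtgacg
Rpl28: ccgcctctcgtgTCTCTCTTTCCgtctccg
Rpl22l1: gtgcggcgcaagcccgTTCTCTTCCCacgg
They lie at chr2:180257364-180257393 on the plus strand for Rps21, chr2:39005117-39005146 on the minus strand for Rpl35, chr7:141447636-141447665 on the plus strand for Rplp2, chr4:86857353-86857382 on the minus strand for Rps6, chr7:4792950-4792979 on the plus strand for Rpl28 and chr3:28805493-28805522 on the plus strand for Rpl22l1. The longest run near the start of Rps21 was 7 bases, against 18 for Rpl35, and RefSeq lists a second start for Rps21 downstream. Among the next lower members it was 10 for Rpl22l1, 5 for Rps3a1 and 9 for Rps27. Among the next higher members it was 4 for Rps28, 3 for Rpl24, 11 for Rpl28 and 21 for Rpl7a. It was also under 8 bases for the stalk gene Rplp0 (7) and the abundant Rpl41 (3), which are not shown. Whether the run goes with direction was not tested. Of the 64 members with a start region in the table, 31 (48.4%) had a run of at least 8 bases within 20 bases of the start on either side, against 4965 of 27025 genes (18.4%). In the 300 bases from 250 before to 50 after the start, the letters CCGGAAG were found on either strand in 26 of the 64 (40.6%), against 9.93% of all genes. The letters AAGATGG were found in 10 of the 64 (15.6%), against 7.28% of all genes. A match is a description of these letters, not a site.

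The 85 genes were abundant and held nearly the same order in every library. In TPM, transcripts scaled for gene length and library size, 66 of them averaged at least 1000, 9 lay between 100 and 1000 and 10 were below 100, with a median of 2274 TPM. Of the 100 genes with the highest mean TPM, 52 were ribosomal protein genes. None of the 20 genes with the most raw counts, which are not divided by length, was one. The listed length of the members had a median of 734 bases, against 2891 bases for all tested genes. The order of the 85 in TPM correlated between libraries at 0.991 to 0.997 (Spearman, across genes, which share the same listed lengths). Of the 84 pairs of neighbours in that order, 18 kept their order in 6 of 6 libraries, so most neighbours do not differ beyond their spread.

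**Figure D1:**
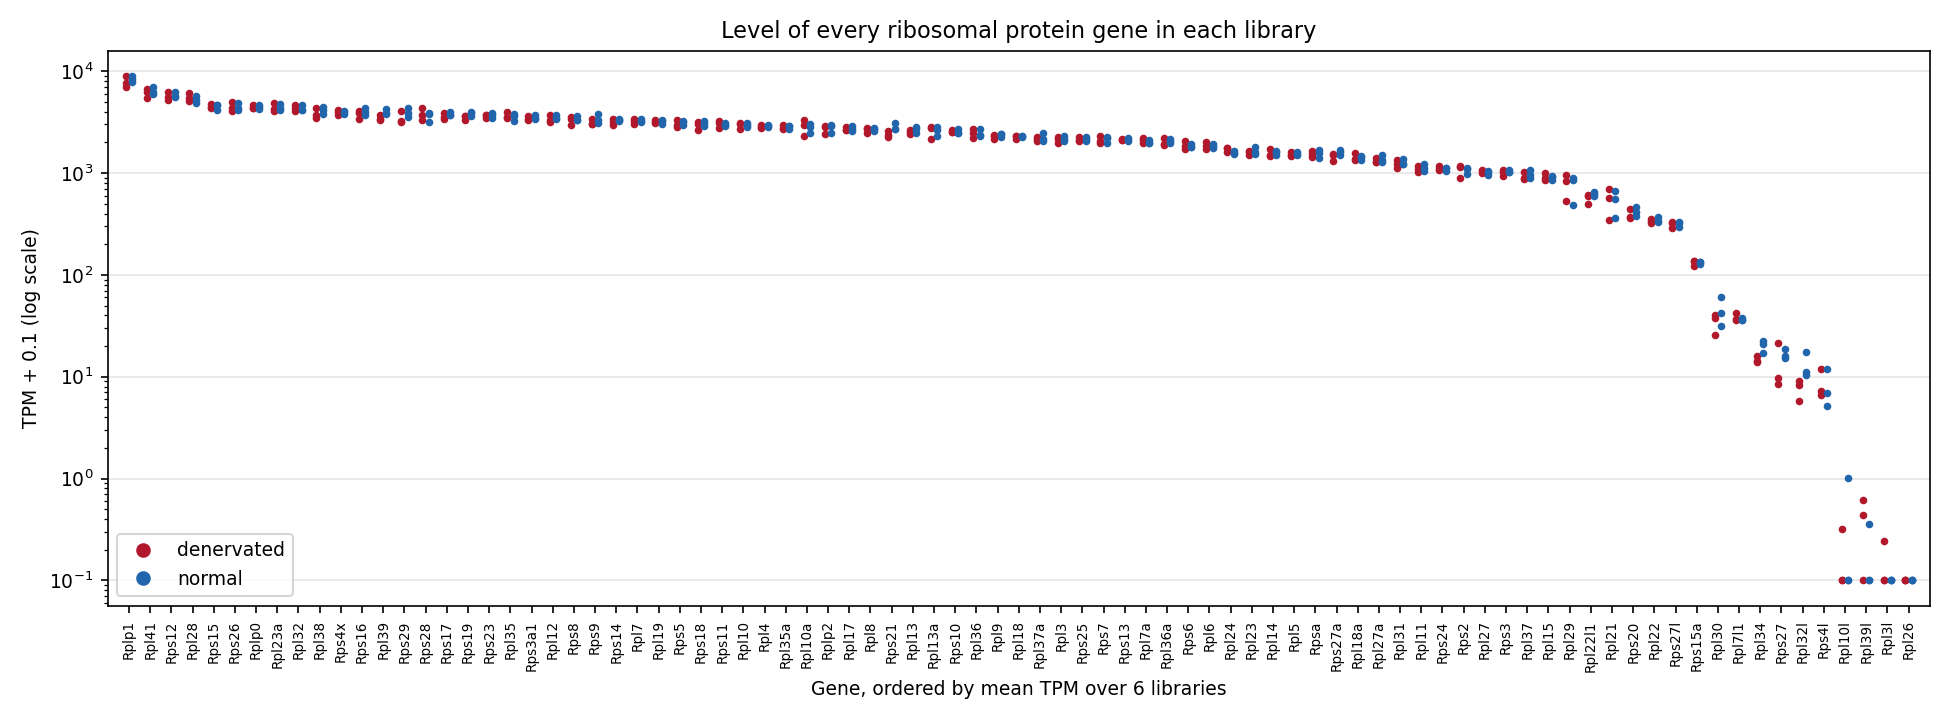
TPM + 0.1 on a log scale for each of the 85 genes, ordered by mean TPM, with 3 points for denervated (red, left of each gene) and 3 for normal libraries (blue, right of each gene). The 66 genes above 1000 TPM form a shallow slope, and the 10 genes below 100 TPM drop away at the right, down to Rpl26 at 0.

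The stalk of the large subunit, which recruits translation factors, consists of Rplp0 and copies of Rplp1 and Rplp2. Rplp1 was the most abundant member, at 7607, 8903 and 6987 TPM in denervated cells of animals 890, 892 and 899 and at 7893, 8974 and 8295 TPM in normal cells. Rplp0 averaged 4437 ± 159 TPM in denervated and 4441 ± 174 TPM in normal cells, and Rplp2 2722 ± 264 TPM in denervated and 2798 ± 271 TPM in normal cells (SD, n = 3 each). Per length, the mRNA of Rplp1 was thus at a higher level than those of its stalk partners in all 6 libraries, and the groups overlapped for each. In CPM, which is not divided by length, Rplp0 (1877 to 2199) was above Rplp1 (904 to 1260) in all 6 libraries. In TPM, Rplp1 was followed by Rpl41 (6158 ± 620 TPM denervated, 6391 ± 507 TPM normal), which encodes a very short basic peptide of the large subunit. Rps12 (5667 ± 479 TPM denervated, 5839 ± 384 TPM normal), Rpl28 (5525 ± 487 TPM denervated, 5252 ± 420 TPM normal) and Rps15 (4499 ± 242 TPM denervated, 4458 ± 270 TPM normal) followed.

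The 10 members below 100 TPM were by symbol paralogs or near copies, or were genes whose near-identical copy was high in estimated counts. Rpl3l, known from striated muscle, was at 0.141 TPM in denervated 892 and at 0 elsewhere, against a mean of 2152 TPM over all libraries for its parent Rpl3. Rpl10l and Rpl39l, known from testis, had highest values of 0.910 TPM (normal 890) and 0.521 TPM (denervated 899), against means of 2959 TPM for Rpl10 and 3724 TPM for Rpl39. Rps4l averaged 8.53 ± 2.95 TPM in denervated and 7.89 ± 3.43 TPM in normal cells, and its parent Rps4x 3967 ± 226 TPM in denervated and 3945 ± 119 TPM in normal cells. Rpl7l1 stood at 38.3 ± 3.31 TPM in denervated and 36.4 ± 0.905 TPM in normal cells, and its parent Rpl7 at 3218 ± 168 TPM in denervated and 3268 ± 85.6 TPM in normal cells. Rps27l, a paralog of Rps27 known as a p53 target, stood at 312 ± 21.5 TPM in denervated and 316 ± 18.9 TPM in normal cells. Rpl32l, which GENCODE lists as a processed pseudogene, averaged 10.3 TPM over the 6 libraries. Per length, Rpl22l1 was higher than its parent. At 612, 592 and 497 TPM in denervated and 629, 650 and 589 TPM in normal cells it was above its parent Rpl22 (339, 352 and 323 TPM in denervated and 332, 369 and 335 TPM in normal cells) in every library. In CPM, which is not divided by length, Rpl22l1 was lower, at 63.0 ± 5.45 in denervated and 70.8 ± 5.02 in normal cells, than Rpl22, at 378 ± 34.4 in denervated and 379 ± 25.6 in normal cells. Rps15a, whose listed length of 5134 bases was the greatest of the 85, ranked 75 of 85 by TPM and 63 of 85 by estimated counts, which are not divided by length.

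Rpl26, Rpl30, Rpl34 and Rps27, which encode core ribosomal proteins, were low in raw and in estimated counts, while a near-identical gene was high in the estimated counts. In Salmon's estimated counts Rpl26 was at 0 in all 6 libraries, and Gm15772, annotated as a processed pseudogene with 99.5% identity to the coding sequence of Rpl26, held 35449 estimated counts in all. In TPM Gm15772 stood at 2188, 2342 and 2001 in denervated and at 2024, 2265 and 2140 in normal cells. For Rps27, with 13.1 ± 7.13 TPM in denervated and 16.6 ± 1.94 TPM in normal cells, the copy was Rps27rt, identical over the coding sequence (100%), at 7961, 8855 and 7829 TPM in denervated and 7646, 8637 and 8235 TPM in normal cells. Rpl34 and Rpl34-ps1 (99.4% identity) averaged 17.4 and 3466 TPM over the 6 libraries, and Rpl30 and Gm12191 (99.7% identity) 39.4 and 2576 TPM. The summed TPM of member and copy in these 4 pairs reached 2177 ± 171, 8228 ± 553, 3458 ± 766 and 2567 ± 389 TPM in denervated and 2143 ± 121, 8189 ± 500, 3509 ± 532 and 2663 ± 480 TPM in normal cells, in the order Rpl26, Rps27, Rpl34 and Rpl30. Over the 6 libraries the sum for Rps27 averaged 8209 TPM, beside 8110 TPM for Rplp1, and the groups overlapped for each of the 4 sums.

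In the raw count matrix these 4 copies were at 0 in every library, and so was Rpl31-ps12, which held 8033 estimated counts. The members Rpl26, Rpl30, Rpl34 and Rps27 held 0, 19, 124 and 301 raw counts over 6 libraries. More generally, raw counts were 59.4% of the estimated counts for the median member, against 102% for the median tested gene, and 30 members lay under 50%. A coding sequence was found for 83 members, and 77 of them had at least 1 annotated gene with 95% identity over 90% of it, the median being 5 and the maximum 56 for Rpl21. Across the 82 members with both values, the percentage was lower where more such genes were annotated (Spearman −0.49, across genes that share libraries and counting). How the reads of members with copies were assigned in the matrix was not tested, so their raw levels are uncertain.

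**Figure D2:**
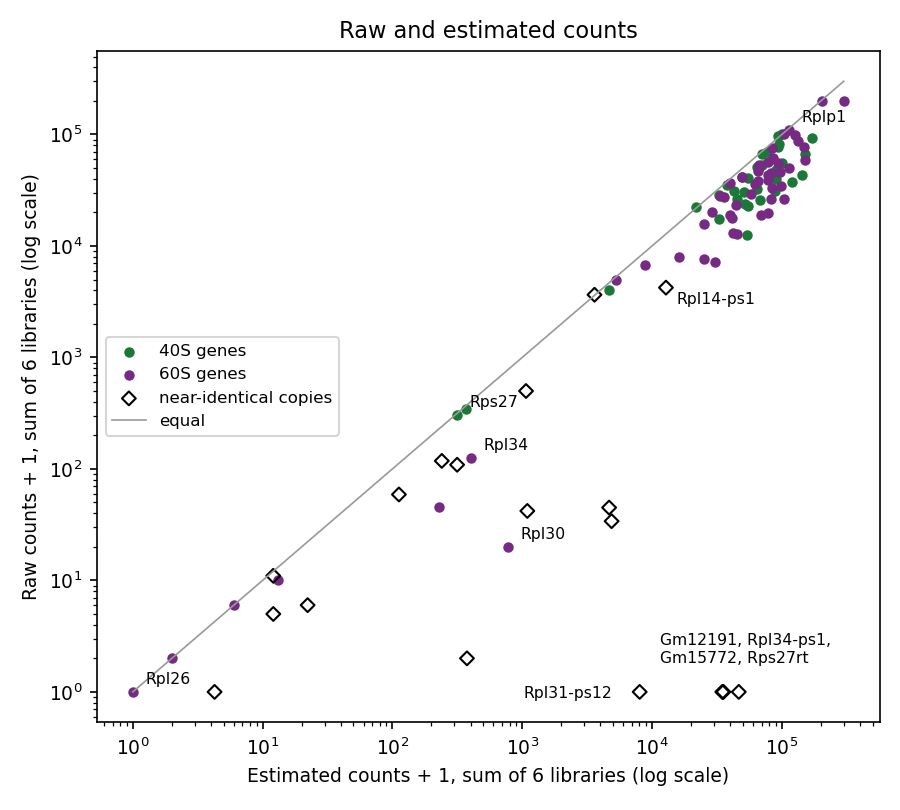
Raw against estimated counts, each summed over 6 libraries plus 1, on log scales, for 40S genes (green), 60S genes (purple) and near-identical copies listed in the files (open diamonds), with the line of equality. Most members lie below the line, and 5 labelled copies with at least 8033 estimated counts lie at 0 raw counts.

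The share of each library in the 85 genes was 3.54%, 3.82% and 3.16% of raw counts in denervated cells of animals 890, 892 and 899, and 3.42%, 3.96% and 3.63% in normal cells of the same animals. Animal 890 had the higher share in denervated cells and animals 892 and 899 the lower, and the groups overlapped. The means were 3.51 ± 0.328% in denervated and 3.67 ± 0.269% in normal cells (SD, n = 3 each), and the paired difference of −0.162 points was smaller than its SD of 0.293 points. The widest 95% Wilson interval of a library was 0.0234 points, so counting error was small beside the spread between animals. These intervals cover counting error only. Per unit of length the same genes made up far more, 19.2%, 20.9% and 18.3% of TPM in denervated and 19.0%, 21.1% and 19.7% in normal cells. In estimated counts the shares were 5.41%, 5.85% and 4.87% in denervated and 5.23%, 6.03% and 5.53% in normal cells. With the near-identical copies listed in the files they were 5.60%, 6.05% and 5.02% in denervated and 5.41%, 6.23% and 5.70% in normal cells. By subunit, 40S genes took 1.40 ± 0.138% of raw counts in denervated and 1.48 ± 0.112% in normal cells, and 60S genes 2.11 ± 0.190% in denervated and 2.19 ± 0.157% in normal cells.

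**Figure D3:**
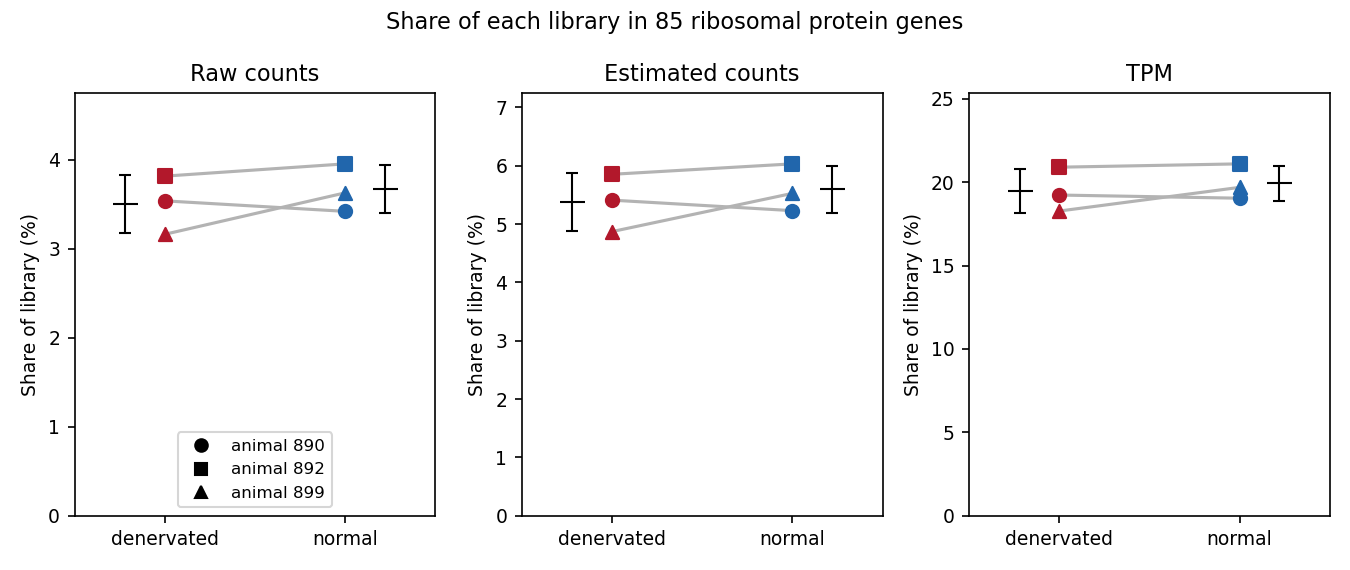
Percentage of each library in the 85 genes by raw counts, estimated counts and TPM, denervated left and normal right, with a line joining the 2 sides of each animal and the mean ± SD (n = 3) beside the points. On each scale animal 890 was higher, and animals 892 and 899 were lower, on the denervated side.

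Denervated was set against normal with the animal as a block, to ask whether ribosomal protein mRNAs differ where skin has lost its nerves. Of the 85 genes 79 had enough counts to be tested, and the other 6 were Rpl10l, Rpl26, Rpl30, Rpl32l, Rpl39l and Rpl3l. No member was called at an adjusted p below 0.05 by edgeR, DESeq2 or limma. The background in edgeR was 426 of 12310 tested genes (3.46%), of which 355 (2.88%) were higher and 71 (0.577%) lower. DESeq2 called 475 of 12310 genes. limma called 1 of 11866 genes, so its lack of called members says little about the members. In estimated counts none of 81 testable members was called, against 3.2% of all genes. At an unadjusted p below 0.05 edgeR had 2 of 79 members (2.53%), against 18.2% of all tested genes. The median log2 fold change was −0.02 for members (quartiles −0.05 and 0.03) and −0.02 for all genes (quartiles −0.17 and 0.12), with 35 members above and 44 below 0. The 33 genes of the 40S and the 46 tested genes of the 60S subunit had medians of −0.02 and −0.01. For 70 members the 95% interval of the fold change lay within 1.25-fold in either direction, and for 76 within 1.5-fold. These intervals use edgeR's 13.5 degrees of freedom, most of them borrowed from other genes, so they do not rest on the spread of the 3 animals alone. Among the 70 members that averaged 100 CPM or more, log2 fold changes ran from −0.22 (Rps21) to 0.18 (Rpl35). The smallest absolute log2 fold change called among the 2254 tested genes with an average of at least 100 CPM in edgeR's own fitted abundance was 0.29. The authors' deposited table lists the 85 genes with none of 76 adjusted p-values below 0.05 and Rps21 as the lowest, at 0.0968.

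Rps21, a small protein of the 40S subunit (chromosome 2, 180257377 to 180258445, plus strand, mm10), stood at 202, 224 and 189 CPM in denervated and 222, 267 and 230 CPM in normal cells. All 3 animals had less of it in denervated cells, although the groups overlapped. In TPM it stood at 2264, 2573 and 2343 in denervated and 2728, 3087 and 2722 in normal cells, with no overlap. Its log2 fold change of −0.22 ± 0.07 (SE) had an unadjusted p of 0.00911 and did not pass (adjusted p = 0.118, edgeR). In estimated counts its value was −0.21 (adjusted p = 0.133), and its raw counts were 101% of the estimated ones.

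Rpl35, a protein at the exit of the peptide tunnel (chromosome 2, 39001580 to 39005624, minus strand), stood at 129, 164 and 133 CPM in denervated and 104, 140 and 134 CPM in normal cells. Denervated cells held more of it in animals 890 and 892 and about as much in 899, and the groups overlapped. Its log2 fold change of 0.18 ± 0.08 did not pass (adjusted p = 0.263), and in estimated counts it was 0.07 ± 0.08. Raw counts of Rpl35 were 28.7% of the estimated ones.

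Rpl39, a short protein of the large subunit at the peptide tunnel, had groups that overlapped in CPM but not in TPM, as for Rps21. It stood at 3417, 3748 and 3302 TPM in denervated and 3804, 4229 and 3844 TPM in normal cells, with no overlap. In CPM it stood at 186, 187 and 158 in denervated and 171, 203 and 187 in normal cells, with overlap (log2 fold change −0.08 ± 0.08, adjusted p = 0.641, edgeR). Unlike Rps21, Rpl39 was thus higher in denervated cells of animal 890 in CPM. In estimated counts its log2 fold change was −0.15 ± 0.08 (adjusted p = 0.339, edgeR), and its raw counts were 42.95% of the estimated ones. The values of Rpl39 therefore differed with the counting as well as with the scale. In limma on log2(TPM + 1) its log2 fold change was −0.18 (adjusted p = 0.241) and that of Rps21 −0.25 (adjusted p = 0.148).

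The next lower members were Rpl22l1, Rps27a, Rps3a1 and Rps27. Rpl22l1, the paralog of Rpl22, which is known as an RNA-binding protein that also acts outside the ribosome, stood at 66.3, 66.0 and 56.7 CPM in denervated and 69.9, 76.2 and 66.2 CPM in normal cells (log2 fold change −0.17 ± 0.08, adjusted p = 0.286). Its parent Rpl22 had a log2 fold change of −0.01. Rps27a, made as a fusion with ubiquitin, stood at 262, 274 and 221 CPM in denervated and 268, 306 and 270 CPM in normal cells (−0.16 ± 0.08, adjusted p = 0.304). Rps3a1 stood at 428, 431 and 359 CPM in denervated and 448, 500 and 410 CPM in normal cells (−0.16 ± 0.08, adjusted p = 0.306), but its log2 fold change was 0.01 in estimated counts. Rps27 had only 1.60 to 3.29 CPM in denervated and 2.89 to 3.88 CPM in normal cells (−0.59 ± 0.31, adjusted p = 0.341), and in TPM it was higher on the denervated side in animal 899. Each of these 4 was lower in 3 of 3 animals in CPM, and in each the groups overlapped.

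After Rpl35 the higher members with the smallest p were Rps28, Rpl24, Rpl28 and Rpl7a, with log2 fold changes of 0.11, 0.09, 0.10 and 0.09 and adjusted p-values of 0.527, 0.541, 0.552 and 0.589. Rpl24, a protein at the subunit interface known from the mouse Belly spot and tail mutant, stood at 129, 156 and 131 CPM in denervated and 124, 138 and 128 CPM in normal cells. Rpl28 stood at 461, 534 and 447 CPM in denervated and 403, 502 and 445 CPM in normal cells. Each of the 3 animals had more of both in denervated cells, by small steps in 899, and the groups overlapped for both.

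Members with known roles in signalling did not pass. Rps6, the target of S6 kinase, averaged 386 ± 48.7 CPM in denervated and 382 ± 23.6 CPM in normal cells (log2 fold change 0.01). Rps3, which also binds NF-kB subunits, averaged 1023 ± 112 CPM in denervated and 1036 ± 42.5 CPM in normal cells (−0.02). Rpsa, the laminin receptor precursor, averaged 674 ± 53.3 CPM in denervated and 693 ± 73.2 CPM in normal cells (−0.04). Rpl5 and Rpl11 together with 5S RNA can bind and inhibit Mdm2. Rpl5 averaged 596 ± 45.3 CPM in denervated and 602 ± 21.6 CPM in normal cells (−0.02), and Rpl11 390 ± 46.1 CPM in denervated and 396 ± 26.8 CPM in normal cells (−0.03). None of these 5 had 1 direction in all animals. The stalk genes Rplp0, Rplp1 and Rplp2 had log2 fold changes of 0.03, −0.09 and −0.02, with adjusted p-values from 0.673 to 0.908.

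Within an animal the differences of the members lay close together. In animal 890, 68 of the 79 were higher on the denervated side, with a median log2 difference of 0.12. In animal 892 the median was 0.02, with 47 higher. In animal 899, 74 of the 79 were lower, with a median of −0.15. The spread around these medians was narrow, with interquartile ranges of 0.114, 0.111 and 0.108, against 0.451, 0.357 and 0.323 for all tested genes, whose medians were −0.02, −0.01 and −0.01. At a matched level, the 70 members with a mean of at least 100 CPM had medians of 0.12, 0.02 and −0.15 and interquartile ranges of 0.0985, 0.0929 and 0.104. All 2242 genes of that level had medians of 0.08, 0.10 and 0.05 and interquartile ranges of 0.298, 0.235 and 0.216, so that abundant genes in general were also higher in 890, and the members lay below them in 892 and 899. Without animal 890 the median log2 fold change of the members was −0.07 (13 of 79 above 0), and without animal 899 it was 0.06 (62 of 79 above 0), with no member called in either case. Both subunits took part: the medians were 0.11, 0.02 and −0.19 for 40S and 0.14, 0.01 and −0.14 for 60S genes. As the sign differed between animals, 12 of 79 members (15.2%), 3 higher and 9 lower, had 1 direction in 3 of 3 animals, against 40.7% of all tested genes. In CPM no member had groups that did not overlap, against 19.0% of all tested genes. In TPM, of 81 members with a mean of at least 1, the groups did not overlap for 4, against 17.5% of 11866 genes, of which 1180 were lower and 898 higher. All 4, Rps21, Rpl39, Rpl34 and Rpl32l, were lower in denervated cells in TPM. In raw counts Rpl34 had a log2 fold change of 0.13, and Rpl32l had 6, 7 and 17 counts in denervated and 1, 6 and 8 counts in normal libraries. In estimated counts both were lower, at −0.30 for Rpl34 and −0.70 for Rpl32l (adjusted p = 0.588 and 0.344, edgeR). The authors' deposited values were −0.43 and −0.70. The direction of these 2 low genes thus differed between raw and estimated counts. Members are not independent of one another, so the numbers of members given here are a description.

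**Figure D4:**
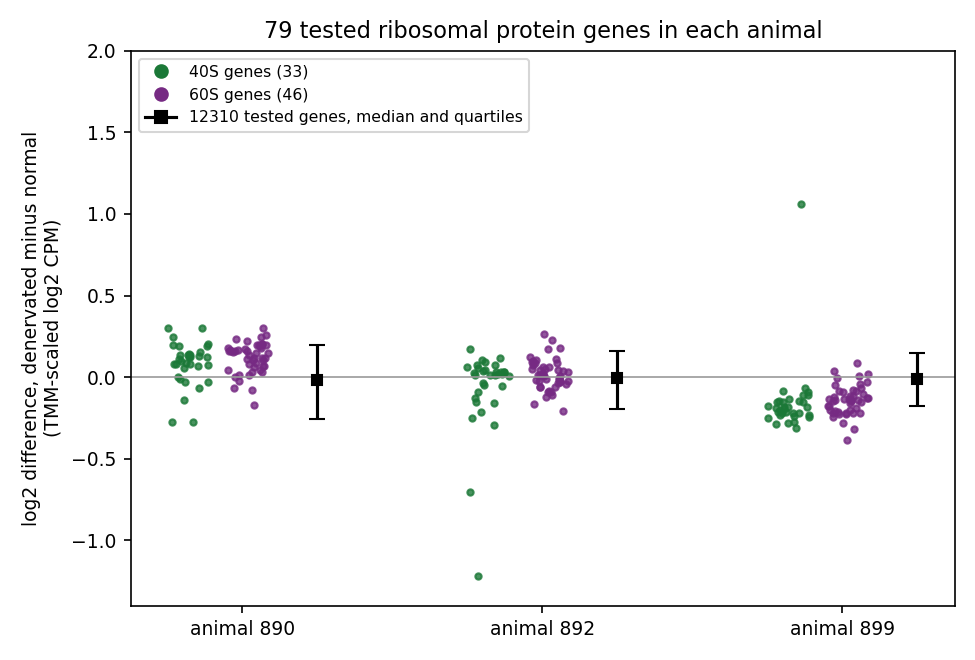
Log2 difference in TMM-scaled CPM, denervated minus normal, for each tested 40S (green) and 60S gene (purple) in each animal, with the median and quartiles of 12310 tested genes in black. The members stand mostly above 0 in animal 890, around 0 in 892 and mostly below 0 in 899, with Rps27 in 892 and Rps4l in 892 and 899 standing apart.

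Over the 6 libraries the level of a member followed that of the others. For the 70 members at 100 CPM or more, the correlation of log2 CPM with the mean of the other members had a median of 0.886 (quartiles 0.803 and 0.916), and 67 exceeded 0.5. The lowest were Rpl21 at 0.05 and Rps10 at 0.46. For 2172 other genes whose mean log2 CPM over libraries reached that level the correlation with the mean of the members had a median of −0.09. These correlations describe 6 libraries that share animals and scaling. Relative to their own mean over libraries, the tested members stood at 0.01, 0.10 and −0.14 log2 in denervated and −0.10, 0.12 and 0.01 log2 in normal cells of animals 890, 892 and 899.

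The medians within an animal depended on scaling, and are given beside those of other genes of like length and beside depth. Scaled to library totals instead of by TMM, the median member differences were 0.05, −0.06 and −0.19 in animals 890, 892 and 899, those of all genes −0.09, −0.08 and −0.05. In animal 899 other genes of 500 to 1000 bases had a median difference of −0.18 beside −0.16 for the 43 members of that length. Other genes of 4000 bases or more had a median of 0.06 there, beside −0.11 for the 1 member of that length. In animal 890 the other genes of 500 to 1000 bases had a median of 0.05, beside 0.12 for the members, and in animal 892 −0.08, beside 0.01. Under 500 bases the other genes had medians of −0.04, −0.16 and −0.25 in animals 890, 892 and 899, beside 0.11, −0.01 and −0.20 for the members. Below 1000 bases the members thus lay closer to genes of like length in 899 than in 890 and 892. At 2000 to 4000 bases the 4 members had medians of 0.11, 0.04 and −0.13, beside −0.04, −0.02 and −0.02 for other genes. At that length the members did not lie closer to other genes in 899 than in 892. Over all animals the median log2 fold change was −0.02 for the members of 500 to 1000 bases and −0.07 for the other genes. Under 500 bases it was −0.05 (15 members) and −0.15. The denervated library had 0.367, 0.677 and 0.959 times the total counts of its normal partner in animals 890, 892 and 899, so that the ratio was lowest where the members were highest and highest where they were lowest. The part of depth and of length in these differences was not tested.

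A test between the 3 animals, chosen after the data were seen, called 3 of 79 tested members, Rpl29, Rpl21 and Rpl10a. That share was close to the background of 466 of 12310 genes (3.79%), so the number called does not set the members apart. Rpl29, a basic protein of the large subunit, stood at 43.9, 102 and 87.7 CPM in denervated and 39.0, 107 and 98.1 CPM in normal cells of animals 890, 892 and 899 (adjusted p = 1.38e-05, edgeR). Animal 890 was low on both sides, with animal 892 at 1.34 and animal 899 at 1.18 above it on the log2 scale. Rpl21, another protein of the large subunit, stood at 341, 462 and 492 CPM in denervated and 331, 447 and 485 CPM in normal cells (adjusted p = 0.00813), again with both sides of animal 890 lowest. Rpl10a, part of the L1 stalk, stood at 275, 332 and 198 CPM in denervated and 247, 309 and 231 CPM in normal cells (adjusted p = 0.0158), with animal 899 lowest. In estimated counts 2 of 81 testable members were called, Rpl29 and Rpl21 (background 3.21%), and Rpl10a was not (adjusted p = 0.0758).

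Rpl29 and Rpl21 are among the members with most annotated near-identical genes, 27 and 56, and Rpl10a has 1. Rpl14-ps1, a processed pseudogene with 98.9% identity to the coding sequence of Rpl14, stood at 84.3, 41.9 and 4.36 CPM in denervated and 69.4, 41.0 and 6.07 CPM in normal cells (adjusted p = 1.77e-07), while Rpl14 itself was not called between animals.

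**Figure D5:**
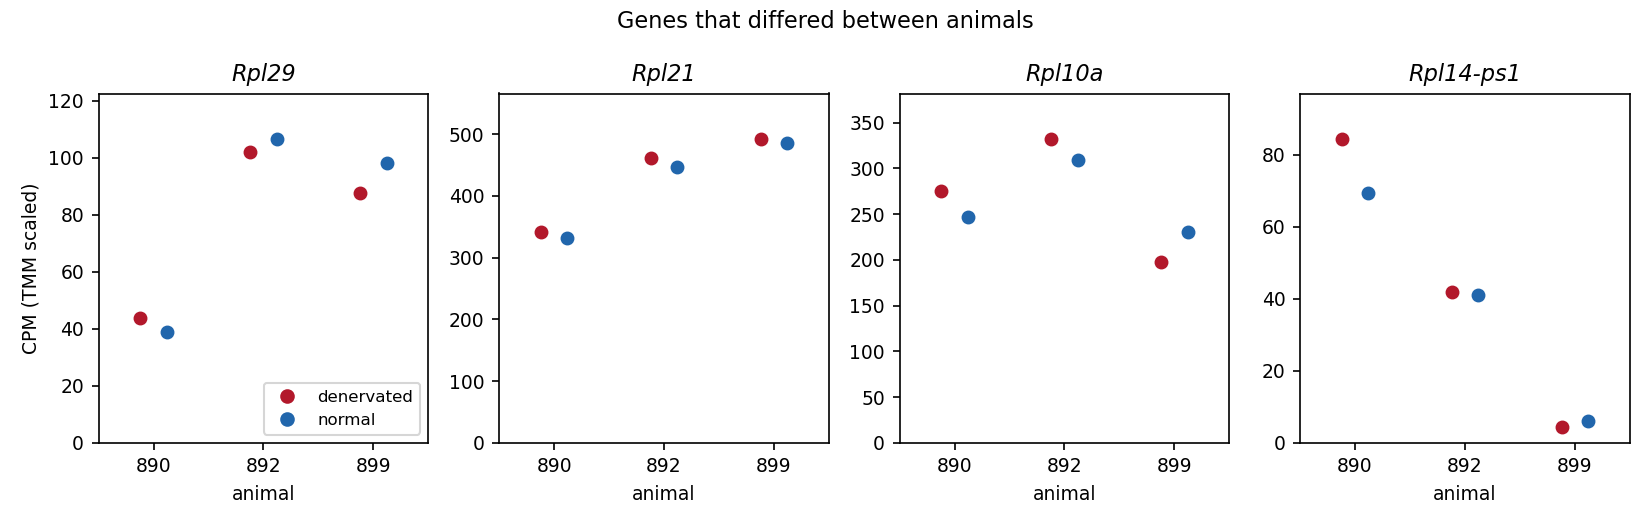
CPM after TMM scaling by animal for the 3 members that differed between animals and for the copy Rpl14-ps1, with the denervated library (red) left of the normal one (blue). Both sides of animal 890 are low for Rpl29 and Rpl21, and both sides of animal 899 are low for Rpl14-ps1.

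Genes around the ribosome were described by lists chosen for their roles. Outside the symbol rule, Fau had a log2 fold change of −0.04 (adjusted p = 0.822). Among 23 tested other mRNAs known to carry a TOP tract, chiefly translation factors, none was called, with a median log2 fold change of 0.05 and 17 above 0. By animal this list had medians of 0.10, 0.11 and −0.04. Nearest to the threshold were Vim (0.59, adjusted p = 0.0732), the intermediate filament gene vimentin, and Pabpc1 (0.24, adjusted p = 0.175), the poly(A)-binding protein. Of 25 tested regulators of ribosomal protein synthesis 1 was called, a share close to the background of 3.46%. Eif4e, the cap-binding protein that 4E-BPs block, stood at 102, 95.2 and 93.9 CPM in denervated and 72.3, 70.2 and 84.2 CPM in normal cells, with no overlap (log2 fold change 0.37 ± 0.09, adjusted p = 0.0343). The call was lost without the block (adjusted p = 0.18), with library totals (0.0706), in limma (0.136), without animal 890 (0.0557) and without animal 892 (0.155). Mtor had a log2 fold change of −0.09 and Myc of −0.05. Of 10 tested genes of the p53 and ribosomal stress response none was called, Mdm2 coming nearest at 0.23 (adjusted p = 0.126) and Sesn2 next at 0.19 (adjusted p = 0.209).

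The 78 mitochondrial ribosomal protein genes, which encode a separate ribosome, were all tested and none was called. Their median log2 fold change was −0.08, with 25 above 0, and the smallest unadjusted p values were those of Mrps6 (0.34, adjusted p = 0.177) and Mrps11 (−0.45, adjusted p = 0.212). By animal their medians were 0.06, −0.08 and −0.18, against 0.12, 0.02 and −0.15 for the cytosolic genes. The difference between these lists was not tested. The correlation of a mitochondrial member with the mean of the others over 6 libraries had a median of 0.43, against 0.87 for the 79 tested cytosolic members, at a median standard error of 0.14 and 0.08 of the log2 fold change.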

How the data were processed

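Per the submitters' processing notes, STAR 2.6.1a, Salmon 0.11.2 and mm10 were used. For the count matrix, its annotation, tool and strand setting are not stated by the labels or headers. The authors deposited raw counts per gene, Salmon's estimated counts and TPM per gene (per the file headers), and their own comparison as log2 fold changes and p-values. Raw counts were tested with edgeR 4.0.16 (R 4.3.3, TMM, filterByExpr, quasi-likelihood), animal as block, all 6 libraries, Benjamini-Hochberg over 12310 genes, with 26 date-like row names kept in totals and tests. Samples are paired by animal, since per the labels each mouse gave both sides, and deviations of same-animal libraries correlated at 0.356, 0.361 and 0.443. DESeq2 1.42.0, limma 3.58.1 on log2(TPM + 1), and estimated counts rounded to whole numbers were alternatives. Standard errors were derived from each fold change and its F statistic. Near-identical copies came from BLAST 2.17.0 of coding sequences against GENCODE M21 transcripts. Named were the 5 members with the smallest p per direction, the 5 highest and 5 lowest by TPM, the role groups, and the called or 2 lowest-p genes of each list. Mtor, Myc, Mbp, Rps10, Rps15a, Rpl29, Rpl21, Rpl10a, members with copies at 0 raw counts, and the copies were named after their values were seen. Members and lists were chosen with earlier results of these data known. Floors of 3 counts were 0.115 to 0.312 CPM, for counting error only. Differences between samples may be partly technical. 1 gene is not reported here.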

Additional observations from a re-analysis of the deposited data

How the results depend on the processing

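No member was called under any of 12 alternatives of scaling, filter, counting, test or animals. At an adjusted p below 0.1 the main fit had 0 members and 820 genes. At that threshold edgeR had Rps21 with library totals (0.0524, among 830 genes) and without the filter (0.0957, among 1302 genes). Without animal 890 it had Rps10 (0.0921, among 542 genes). Without animal 899 it had Rpl35 (0.0647) and Rps28 (0.0961), among 1441 genes. Without the replicate block 0 genes and 0 members were called, against 426 genes with it, and the median log2 fold change of members was −0.01. All genes called numbered 987 without the filter, 1 with limma at either pseudocount, and 248 to 976 when 1 animal was left out, fewest without 892 and most without 899. The median log2 fold change of members was −0.08 with library totals (median of all genes −0.09), 0.01 in estimated counts, and ran from −0.07 without 890 to 0.06 without 899, so its sign rested on which animals were included. The paired difference in share was −0.474 points in TPM, and ran from −0.302 to −0.01 points in raw counts without 1 animal. Members of 1 direction in all animals numbered 22 with library totals and 12 to 58 of 79 with 2 animals. The share over all genes was not computed for these settings, so these numbers are a description and not a measure of coherence. Over 30 tested named members and their alternatives, 45 of 360 log2 fold changes had the other sign and none passed the threshold. Members with near-identical copies are limited by how reads were assigned, and Rps27, Rps4l and Rpl34 by counts.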
